A study of Homo sapiens with 8 samples.

Results

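The RNAs described here are the long noncoding RNAs of the gene table that carry a systematic name: long intergenic noncoding RNAs (LINC symbols), antisense RNAs, intronic transcripts (symbols with -IT and a number, named after the gene whose intron holds them) and host genes of microRNAs. Members were set by a rule on the symbol that used no measured value but was chosen with earlier results of these data known. They are 61 of the 10105 genes in the table, of which 35 are LINC and 26 are intronic transcripts. The table held 0 rows with an antisense name of the form -AS and a digit and 0 rows for microRNA host genes. RNA-Seq and ribosome profiling (Ribo-Seq) were made from HEK293T cells, a human embryonic kidney cell line that carries the SV40 large T antigen, in 2 states: wild type (WT), and XRN1-null, in which CRISPR/Cas9 with a guide RNA against a coding exon of XRN1 disrupted the gene of this cytoplasmic 5′–3′ exoribonuclease. No treatment is named for either state, and cells were collected 24 h after they had been plated in 15 cm dishes, with 2 biological replicates per state and assay and 8 libraries in all. The XRN1-null cells are a single edited cell line, so that its genotype and any other property of that line cannot be told apart.

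Many long noncoding RNAs are capped, spliced and polyadenylated like mRNAs, and many leave the nucleus. XRN1 degrades RNAs that have lost their cap, and in budding yeast a large class of noncoding, mostly antisense transcripts becomes visible only when Xrn1 is missing. Ribosomes engage many cytoplasmic RNAs that are annotated as noncoding, and some loci first named as LINC genes were later found to encode small proteins. Ribo-Seq counts the stretches of RNA that ribosomes shield from nuclease (ribosome-protected fragments, RPF), RNA-Seq here measures polyadenylated RNA, and the translational efficiency (TE) is the RPF level of a gene relative to its RNA level.

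XRN1, the edited gene, was examined as a check of the labels. Its RNA-Seq level was higher in the XRN1-null libraries (log2 fold change 3.01) and its RPF level lower (-1.08, not called), which gave a called fall in TE (-4.09). The RNA-Seq libraries held 33757487 to 38145433 counts and the Ribo-Seq libraries 1921641 to 4399542, so that footprints of a weakly expressed RNA rest on few counts. Of 10 markers of the HEK293 lineage 7 were in the table, among them VIM, KRT8 and KRT18, and in RNA-Seq KRT18 rose (0.49) and EYA1 and NEFM fell (by 0.83 and 0.59 on the log2 scale). Of 9 markers of blood, liver and fibroblasts only COL1A1 was in the table, and it rose in RNA-Seq (1.34). Members took 0.0658 to 0.0877% of the counts of an RNA-Seq library and 0.0657 to 0.0781% of a Ribo-Seq library. The RNA-Seq kit does not mark strand, so RNA-Seq reads of a member and of a gene overlapping it on the other strand cannot be told apart; whether footprints were counted by strand is not given in the sources used here.

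The LINC members were low but measurable, and most intronic members were at or near 0. Levels between genes are compared in RPKM, the counts per 1000 nt of the deposited width and 1e+06 scaled counts. In WT cells the median RNA level of the 35 LINC members was 4.65 RPKM and their median RPF level 3.91 RPKM, against 15.04 and 10.87 RPKM over all genes of the table. All 35 LINC members had at least 10 counts in every RNA-Seq library, and 28 had as many in every Ribo-Seq library. The 4 highest RNA levels in WT cells were those of LINC00998 (99.7 RPKM), LINC01420 (77.8 RPKM), LINC00493 (57.1 RPKM) and LINC00467 (24.4 RPKM), followed by LINC01578, LINC00094, LINC01234 and LINC00888. The highest RPF levels were those of LINC00493 (164 RPKM), LINC01420 (73.5 RPKM), LINC00998 (65.5 RPKM) and LINC01296 (21.5 RPKM), followed by LINC00649, LINC00491, LINC01021 and LINC00116. The 3 genes that led both orders are now annotated as protein-coding. Annotated exons of LINC00493 share 144 nt with another protein-coding gene on its strand, 118 nt of them in coding sequence of that gene.

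In RefSeq, 5 of the 61 members are protein-coding genes under newer names, 52 are lncRNAs, 2 are transcribed pseudogenes and 2 had no single entry. The 5 are LINC00998 (SMIM30, a small membrane protein of the endoplasmic reticulum), LINC01420 (NBDY, a small protein that binds the decapping scaffold EDC4 in P-bodies), LINC00493 (SMIM26, a small mitochondrial protein), LINC00116 (MTLN, mitoregulin, a peptide of the inner mitochondrial membrane) and LINC00094 (BRD3OS, on the strand opposite to BRD3). The coding sequences of the 3 with the most footprints are shown because they are what a ribosome could translate on these RNAs; they are read from GRCh37, 5′ to 3′, with the start and the stop codon in capitals. The NBDY frame spans 56755787 to 56755993 of chromosome X (plus strand), with 207 nt that encode 68 residues. The SMIM30 frame spans 112757454 to 112757633 of chromosome 7 (minus strand), with 180 nt for 59 residues. The SMIM26 frame spans 18548123 to 18550049 of chromosome 20 (plus strand), with 288 nt in 2 exons for 95 residues.
NBDY: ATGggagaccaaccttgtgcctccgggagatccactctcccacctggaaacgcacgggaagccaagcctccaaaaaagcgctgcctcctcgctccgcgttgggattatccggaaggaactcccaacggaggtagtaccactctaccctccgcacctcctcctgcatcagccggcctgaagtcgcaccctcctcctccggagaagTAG
SMIM30: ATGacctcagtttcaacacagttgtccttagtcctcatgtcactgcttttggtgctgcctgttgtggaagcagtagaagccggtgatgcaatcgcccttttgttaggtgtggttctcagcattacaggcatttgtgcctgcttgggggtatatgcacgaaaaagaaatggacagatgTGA
SMIM26: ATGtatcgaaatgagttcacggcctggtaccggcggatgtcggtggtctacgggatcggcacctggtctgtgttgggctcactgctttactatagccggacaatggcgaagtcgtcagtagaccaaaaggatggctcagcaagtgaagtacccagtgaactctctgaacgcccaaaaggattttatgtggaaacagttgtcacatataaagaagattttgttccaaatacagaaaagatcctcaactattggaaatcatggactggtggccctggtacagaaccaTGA

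The open reading frame takes 29.8% of the deposited width of LINC01420, 16.0% of LINC00998 and 58.5% of LINC00493, but only 4.4% of LINC00094 and 10.6% of LINC00116. Counts were deposited per gene, so the share of footprints that fell within these frames was not analysed here. If the RPF level is divided by the coding length alone, it was 409.8 CPM per 1000 coding nt for LINC00998 in WT cells, 280.3 for LINC00493, 246.5 for LINC01420, 79.08 for LINC00094 and 79.0 for LINC00116. These values are upper limits for the frame, since they count every footprint of the gene.

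A list of 14 LINC symbols reported to encode small proteins was chosen with earlier results of these data known. It had 6 members in the table, the 5 above and LINC00467, whose RNA encodes a short mitochondrial peptide. Their RNA levels were lower in XRN1-null cells: 5 of the 6 fell at an FDR under 0.005 in edgeR's quasi-likelihood test, adjusted by Benjamini and Hochberg's method over all 10105 genes, 0 rose, and in each of the 6 members both XRN1-null libraries were below both WT libraries. Among all genes tested 23.2% fell and 22.9% rose by the same rule, and 43.7% had both XRN1-null libraries below both WT libraries. The median log2 fold change of the 6 was -0.58, against -0.01 over all genes.
LINC00998 had 129 and 95.7 CPM (counts per 1e+06 scaled counts) in the WT RNA-Seq libraries and 65.0 and 63.6 CPM in the XRN1-null libraries. It fell by 0.81 on the log2 scale (SE 0.129, FDR = 0.00105 from edgeR). LINC01420 had 57.7 and 50.3 CPM in WT cells against 34.4 and 34.9 CPM. Neither pair overlapped, and LINC01420 fell by 0.64 (SE 0.0816, FDR = 0.000342 from edgeR). LINC00493 fell by 0.56, LINC00467 by 0.59 and LINC00094 by 0.34. LINC00116 had a log2 fold change of -0.48 and was not called (FDR = 0.0140 from edgeR). LINC00094 lost its call without either XRN1-null library (FDR = 0.0493 and 0.0320 from edgeR), and LINC00467 and LINC00493 lost theirs without XRN1-null replicate 2 (FDR = 0.00658 and 0.0113 from edgeR).

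In Ribo-Seq 0 of these 6 were called, where 0.633% of all genes rose and 1.14% fell by the same rule, and 5 of the 6 log2 fold changes were below 0 with a median of -0.24. LINC01420 had 58.9 and 43.2 CPM in the WT Ribo-Seq libraries and 27.3 and 33.1 CPM in the XRN1-null libraries. The groups did not overlap, and the log2 fold change was -0.72 (SE 0.186, FDR = 0.0243 from edgeR), close to that of its RNA. LINC00998 had 74.5 and 73.0 CPM against 51.4 and 50.6 CPM, a log2 fold change of -0.53 (SE 0.139, FDR = 0.0261 from edgeR). LINC00493 had 91.2 and 70.3 CPM against 59.8 and 70.5 CPM, and the groups overlapped. The log2 fold changes in TE ran from -0.07 for LINC01420 (SE 0.204) to 0.51 for LINC00094 (SE 0.226), and 0 of the 6 were called.

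**Figure D1:**
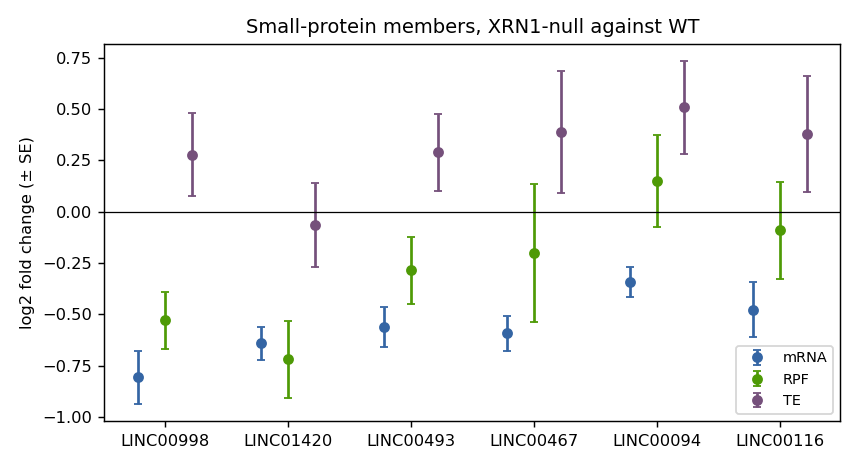
Log2 fold change of the 6 small-protein members in RNA-Seq (mRNA), Ribo-Seq (RPF) and TE, XRN1-null against WT, with bars for 1 SE from the fit over 2 libraries per state and assay. All 6 mRNA points lie below 0, from -0.81 for LINC00998 to -0.34 for LINC00094, while the RPF bars of LINC00116, LINC00467 and LINC00094 and the TE bar of LINC01420 cross 0.

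Footprints per RNA spanned a wide range among the LINC members. The log2 ratio of RPF to RNA, both in CPM and thus free of the gene's length, had a median of -0.13 over the 35 LINC members in WT cells, from -3.79 to 3.26, against -0.29 over all genes with a lower quartile of -0.88 and an upper quartile of 0.24. The authors chose the genes of the table by a stated minimum level, an FPKM above 2, which 21 of the intronic members did not reach in any library, so that these members need not represent noncoding RNAs in general. The 30 LINC members that RefSeq does not call protein-coding had a median ratio of -0.13 (log2), and the 5 coding members had -0.08.

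LINC01578 (CHASERR, an lncRNA transcribed just upstream of CHD2 that limits CHD2 expression) had the lowest ratio of the members. Its log2 ratio was -3.47 and -4.33 in the WT replicates and -4.38 and -3.92 in the XRN1-null replicates, at the 0.0596 percentile of all genes in WT cells. It had 1428 and 1059 RNA-Seq counts in WT cells but 7 footprints in each WT Ribo-Seq library. The highest ratio among the LINC members was that of LINC00649, with a log2 ratio of 3.35 and 3.15 in WT cells against 2.30 and 2.92, at the 99.3 percentile. The intronic ANP32A-IT1 (5.89) and AGPAT4-IT1 (3.70) had higher log2 ratios in WT cells, on 2 to 10 RNA-Seq counts per WT library. LINC00649 had 130 and 122 RNA-Seq counts and 72 and 144 footprints in WT cells. Its annotated exons share 688 nt with exons of genes on the other strand, 36 nt of them in coding sequence. These genes are ATP5PO, a subunit of the mitochondrial ATP synthase, another protein-coding gene and an lncRNA. LINC01296 (DUXAP9, a transcribed pseudogene) had 275 and 618 footprints in WT cells, the most of any member, and a log2 ratio of 1.98.

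**Figure D2:**
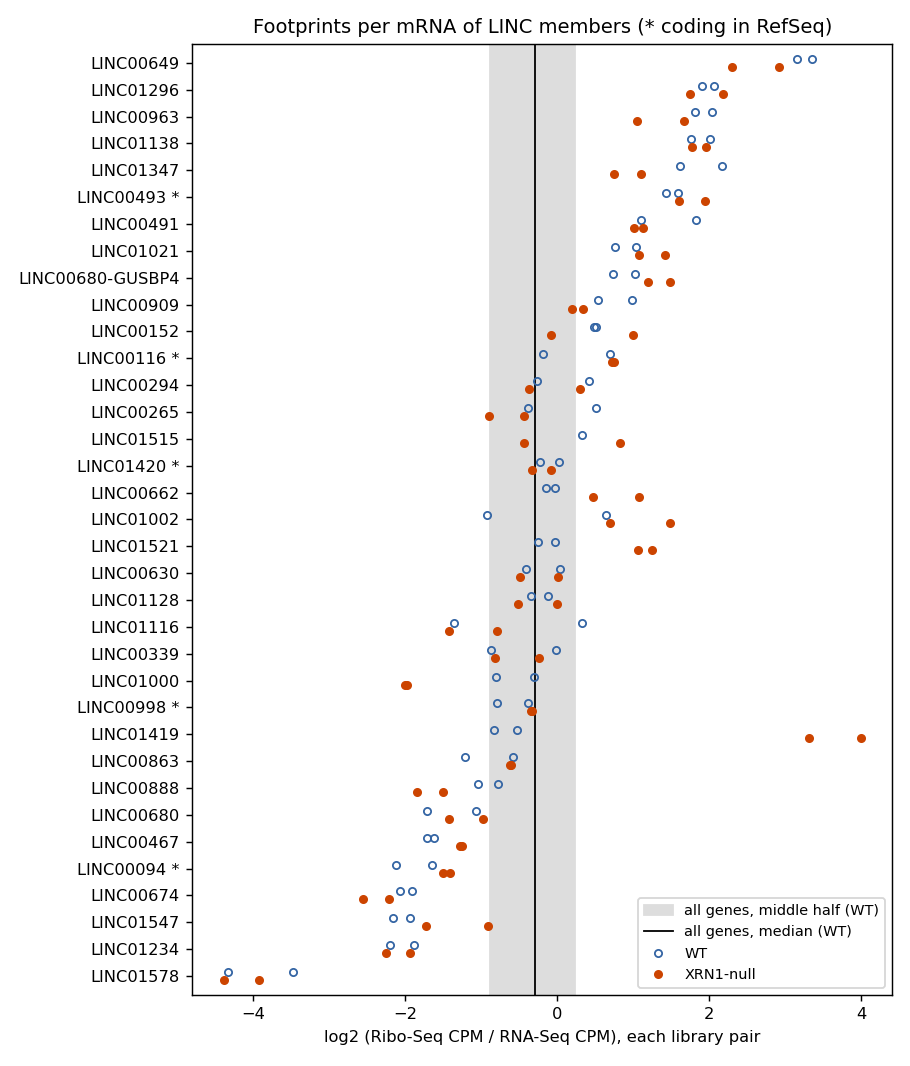
Log2 ratio of Ribo-Seq to RNA-Seq CPM for the 35 LINC members, with a point for each replicate number in WT (open) and XRN1-null (filled) cells; a star marks members that RefSeq calls protein-coding, and the grey band and line give the middle quartiles and the median of all genes in WT cells. Members run from LINC01578 near -4 to LINC00649 near 3, and LINC01419 shows the widest gap between the states; LINC01515 lacks a WT point because 1 library had 3 footprints or fewer.

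In RNA-Seq, 10 members rose and 12 fell in XRN1-null cells, and 39 were not called; these are 16.4% and 19.7% of the members, against 22.9% and 23.2% of all genes. Of the 35 LINC members 9 rose and 12 fell, shares above those of all genes in both directions, with a median log2 fold change of -0.21. Of the 26 intronic members, most of which were at or near 0, 1 rose and 0 fell. With counts scaled by library totals in place of TMM factors, 12 members rose and 9 fell, while over all genes the calls moved the same way, from 2313 rises and 2344 falls to 2664 and 1924. Without XRN1-null replicate 2, 8 members rose and 6 fell, with 1652 rises and 1097 falls over all genes. The groups did not overlap for 19 members that were higher and 23 that were lower in XRN1-null cells, against 41% and 43.7% of all genes. For the LINC members alone these were 13 of 35 and 19 of 35, a smaller share than in all genes for the higher and a larger one for the lower.

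The member with the largest called rise among the LINC RNAs was LINC01578. It had 40.3 and 32.2 CPM in the WT RNA-Seq libraries and 129 and 123 CPM in the XRN1-null libraries. The states were far apart, with a log2 fold change of 1.80 (SE 0.105, FDR = 1.373e-05 from edgeR). The annotated exons of LINC01578 share 470 nt with those of CHD2, its neighbour on the same strand, and of an lncRNA on the other strand. CHD2, a chromatin remodeller, rose by nearly the same amount in RNA-Seq (log2 fold change 1.94), and reads in the shared exons cannot be assigned to either of them with certainty. The RPF level of LINC01578 was 3.65 and 1.61 CPM in WT cells against 6.21 and 8.12 CPM, a log2 fold change of 1.63 (SE 0.445, FDR = 0.0304 from edgeR) that was not called.

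LINC01000 rose from 34.2 and 33.3 CPM in WT to 111 CPM in each XRN1-null library. Replicates were almost identical, and the log2 fold change was 1.72 (SE 0.0638, FDR = 3.073e-06 from edgeR). LINC01002 rose from 3.95 and 2.34 CPM to 11.6 and 9.27 CPM (log2 fold change 1.72). Its mean level in WT cells was 0.646 RPKM in RNA-Seq and 0.591 RPKM in Ribo-Seq against 2.14 and 4.87 RPKM in XRN1-null cells, so that it was above the stated minimum of the table only in the state where it was high, and its rises are not independent of that selection. LINC01347 rose from 248 and 173 counts to 672 and 593 counts (1.42). LINC00265, LINC00674, LINC00491, LINC00649 and LINC00888 rose by 0.94, 0.91, 0.77, 0.68 and 0.50 on the log2 scale. Mean RNA-Seq levels of LINC01347 and LINC00649 were above the stated minimum only in XRN1-null cells. Their mean Ribo-Seq levels were above it in both states. Which assay the filter used is not stated, so the RNA-Seq rises of LINC01347 and LINC00649 need not be independent of that selection. Without either XRN1-null library LINC00649 (FDR = 0.0477 and 0.00624 from edgeR) and LINC00888 (FDR = 0.00962 and 0.0190) lost their calls. The tenth rise was that of the intronic SLIT2-IT1.

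Among the called members LINC01419 fell most. It had 8.27 and 7.34 CPM in the WT RNA-Seq libraries and 0.449 and 0.334 CPM in the XRN1-null libraries, or 293 and 241 counts against 17 and 13. Its level was near 0 in both XRN1-null libraries, and it fell by 4.31 on the log2 scale (SE 0.216, FDR = 7.945e-06 from edgeR). LINC01021 (PURPL, an lncRNA induced by p53 that restrains p53 levels) had 5.34 and 4.87 CPM against 1.88 and 2.11 CPM and fell by 1.36 (SE 0.163). LINC01521 had 16.8 and 16.7 CPM against 7.48 and 7.22 CPM and fell by 1.19 (SE 0.0951). In these 3 the replicates lay close together and the states did not overlap. Mean RNA-Seq levels of LINC01419, LINC01021 and LINC01521 were above the stated minimum only in WT cells. They were 5.14, 4.62 and 3.81 RPKM in WT against 0.258, 1.80 and 1.67 RPKM in XRN1-null cells. In Ribo-Seq all of them were above it in both states. Which assay the filter used is not stated, so these falls need not be independent of that selection. LINC00863, LINC01234, LINC01296 and LINC00339 fell by 0.74, 0.70, 0.57 and 0.54, and the other 5 called falls were those of the small-protein list. LINC00339 lost its call without either XRN1-null library (FDR = 0.0206 and 0.0338 from edgeR), and LINC00863 and LINC01296 lost theirs without XRN1-null replicate 2 (FDR = 0.0146 and 0.00663 from edgeR).

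**Figure D3:**
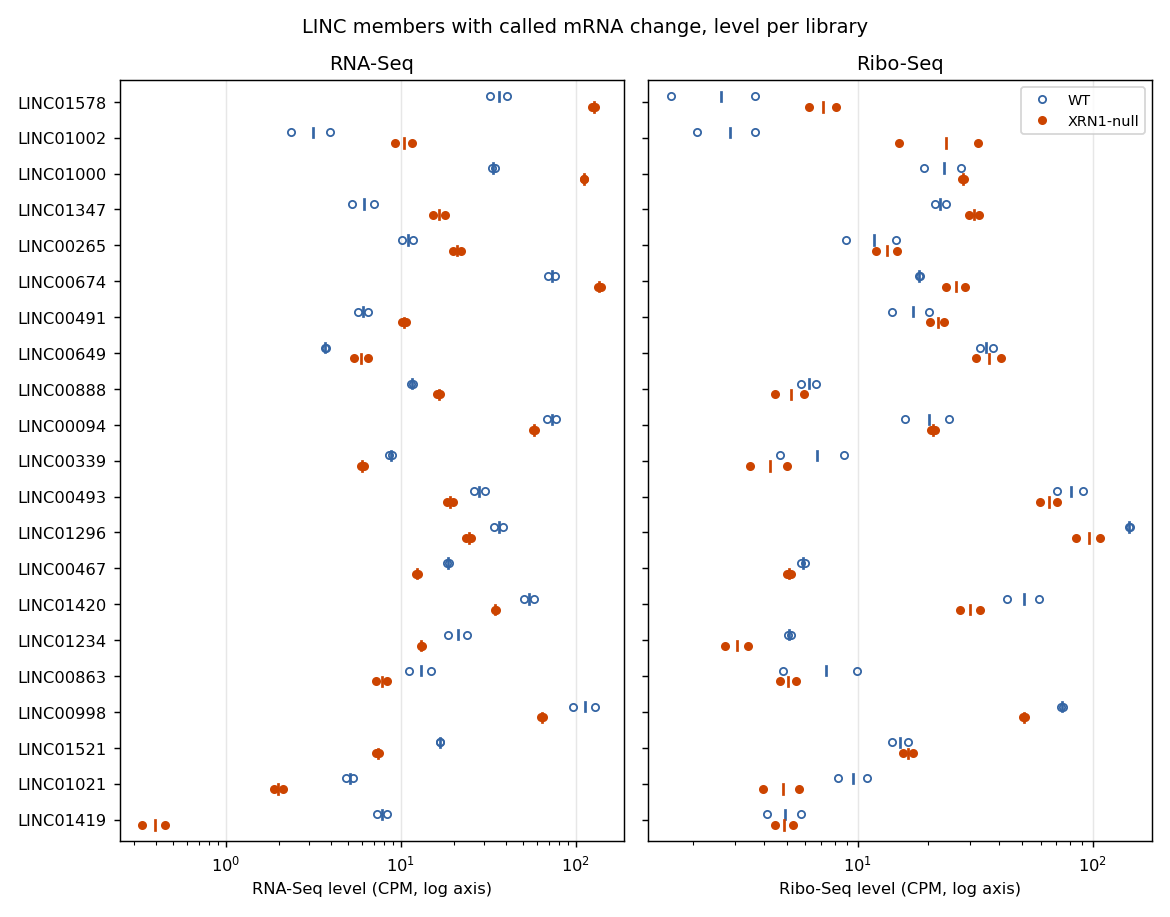
RNA-Seq (left) and Ribo-Seq (right) levels in CPM on log axes of the 21 LINC members with a called RNA change, with a point per library (WT open, XRN1-null filled) and a tick at the mean of the 2 replicates, ordered by RNA log2 fold change. The states are apart in each row on the left and often overlap on the right; LINC01419 shows the widest gap in RNA-Seq and none in Ribo-Seq.

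In Ribo-Seq 1 member rose and 0 fell, against 0.633% and 1.14% of all genes, and 9 of the 61 members had an unadjusted p under 0.05, as did 3336 of the 10105 genes, a larger share; DESeq2 also called 1 rise and 0 falls. With the replicate number as a block 2 members rose and 2 fell, without WT replicate 1 also 2 and 2, and without WT replicate 2 there were 1 rise and 3 falls, while the calls over all genes rose from 64 rises and 115 falls to 616 and 665, 588 and 707, and 1282 and 1087. The groups did not overlap for 13 members that were higher and 11 that were lower, against 32.1% and 32.3% of all genes, and for 9 and 9 of the 35 LINC members. The member that rose was LINC01002, with 2.08 and 3.67 CPM in the WT Ribo-Seq libraries and 32.5 and 15.0 CPM in the XRN1-null libraries. In counts these were 4 and 16 against 131 and 48 footprints. Both XRN1-null libraries were above both WT libraries but differed from each other, and the log2 fold change was 2.93 (SE 0.435, FDR = 0.00296 from edgeR). Only 3.4% of the 29-nt windows of its annotated transcripts occur at a single place in GRCh37, and 64.6% occur at 10 or more places, so its counts could include reads of near-identical copies. It was called in 4 of 4 fits that left out 1 library, with log2 fold changes of 2.23 to 3.54, and was not tested where at least 10 counts were required in every library. As in RNA-Seq, only its XRN1-null level was above the stated minimum of the table.

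For TE, 2 members rose and 1 fell, against 0.0495% and 1.78% of all genes, and 10 of the 61 members had an unadjusted p under 0.05, as did 2356 of the 10105 genes, a larger share. Over all 10105 genes 5 rose in TE, and this number was 0 to 9 when 1 library was left out and 55 with the genotype and replicate number shared by an RNA-Seq and a Ribo-Seq library as a block. LINC01419 had 5.73 and 4.13 CPM in the WT Ribo-Seq libraries and 4.47 and 5.31 CPM in the XRN1-null libraries. Its footprints thus overlapped between the states while its RNA fell, and the change in TE was 4.36 on the log2 scale (SE 0.449, FDR = 0.000169 from edgeR). The log2 ratio of RPF to RNA moved from -0.53 and -0.83 in the WT replicates to 3.31 and 3.99 in the XRN1-null replicates. These values rest on 11 to 18 footprints per library, and on an RNA level above the stated minimum only in WT cells. In LINC01419 16.8% of the 29-nt windows occur at 10 or more places in GRCh37. The part of repeated sequence in its footprints was not tested.

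LINC01521 had 14.1 and 16.3 CPM in the WT Ribo-Seq libraries and 15.6 and 17.2 CPM in the XRN1-null libraries, and its TE change was 1.26 (SE 0.208, FDR = 0.00370 from edgeR). The RPF groups overlapped here too, while the RNA level fell to a mean under the stated minimum in XRN1-null cells. In LINC01521 23.7% of the 29-nt windows occur at 10 or more places in GRCh37. The part of repeated sequence in its footprints was not tested. LINC01521 was called in 0 of the 8 fits that each left out 1 library, with log2 changes in TE of 1.19 to 1.42 (FDR = 0.00730 to 0.0342 from edgeR). LINC01000 was the member with a called fall in TE. Its RPF level was 27.6 and 19.1 CPM in WT cells against 28.3 and 27.8 CPM (log2 fold change 0.34, SE 0.198), while its RNA rose, and its TE fell by 1.36 (SE 0.194, FDR = 0.00156 from edgeR). Of the members without a call, LINC01347 had the TE change nearest to the threshold, -0.97 (SE 0.244, FDR = 0.0318 from edgeR). LINC01419 kept its call in 6 of 8 fits that left out 1 library, and LINC01000 in 4 of 8, with the calls lost when either XRN1-null Ribo-Seq library was left out (LINC01419, FDR 0.00884 and 0.00716; LINC01000, FDR 0.0233 and 0.0176 from edgeR) and, for LINC01000, also without either XRN1-null RNA-Seq library.

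**Figure D4:**
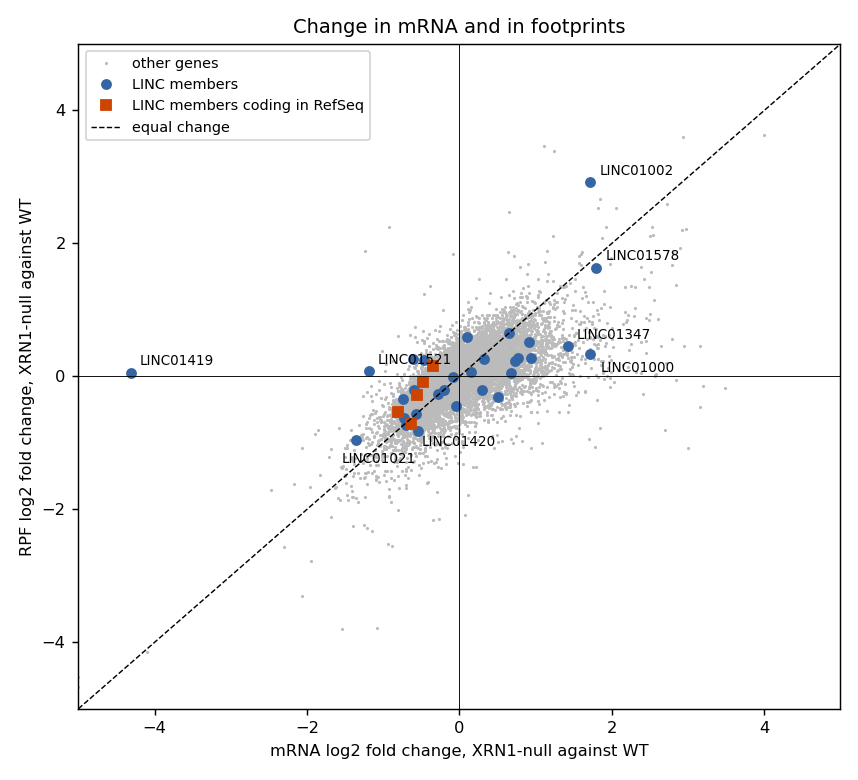
RPF log2 fold change against RNA log2 fold change, XRN1-null against WT, for the 35 LINC members (blue, with the 5 coding in RefSeq as orange squares) and the other genes (grey; values beyond 5 drawn at the edge); the dashed line marks equal change. LINC01419 lies far left at an RNA change of -4.31 and an RPF change near 0, LINC01002 highest at 2.93, and LINC01000 below the line.

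The 26 intronic members were mostly at or near 0 in RNA-Seq. In RNA-Seq 10 of the 26 had 0 counts in all 4 libraries, and these were 10 of the 11 genes tested that had that pattern. In 7 of the 26, namely ARHGAP26-IT1, ASAP1-IT1, CPS1-IT1, HS1BP3-IT1, MAPT-IT1, RNF216-IT1 and STX18-IT1, all 8 libraries were at 0, as in 0 of the other genes. A count of 0 allows up to 3 counts per library. On the deposited totals and widths, 21 of the 24 genes of the table at or under an FPKM of 2 in every library were intronic members, although the stated filter was an FPKM above 2. The hosts of 25 of the 26 were in the table and had WT RNA levels of 1.49 to 129.7 RPKM.

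CRHR1-IT1 (now LINC02210) was the only intronic member above an FPKM of 2 in every RNA-Seq library. It had 291 and 244 RNA-Seq counts in WT libraries against 381 and 385 in the others, with a log2 fold change of 0.35 (SE 0.109, FDR = 0.0227 from edgeR), and 23, 43, 40 and 37 footprints in the 4 Ribo-Seq libraries. Its exons share bases with a readthrough gene into CRHR1, which encodes a corticotropin-releasing hormone receptor. CRHR1 itself was not analysed here.

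The single called intronic member was SLIT2-IT1 (GRCh37 chromosome 4, 20393777 to 20396479, plus strand), within the gene of the guidance ligand SLIT2 and on its strand, with no exon bases shared. The WT libraries held 8 and 2 RNA-Seq counts of it, the XRN1-null libraries 78 and 66. The groups were far apart, with a log2 fold change of 3.65 (SE 0.454, FDR = 0.000309 from edgeR) and a range of 3.03 to 4.89 when single libraries were left out. With these WT counts it was not tested where at least 10 counts were required in every library. Its RNA level was 0.239 RPKM in WT and 3.13 RPKM in XRN1-null cells, and its RPF level 0 and 0.466 RPKM, so that it too was above the stated minimum only in the state where it was high. SLIT2 itself rose in RNA-Seq by 1.28, so the intronic RNA level went from 0.472% of the host's RPKM in WT to 2.54% in XRN1-null cells. Reads from unspliced SLIT2 RNA and from SLIT2-IT1 cannot be told apart in this table. Its footprints numbered 0 in each WT library and 1 in each XRN1-null library, under the floor of 3 counts. Of the 24 different hosts that were measured, 7 rose and 2 fell in RNA-Seq, against 22.9% and 23.2% of all genes, and 15 were not called.

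A few intronic members had more footprints than RNA-Seq counts. ASAP1-IT2 had 0 counts in all 4 RNA-Seq libraries and 9, 34, 34 and 31 footprints in WT replicates 1 and 2 and XRN1-null replicates 1 and 2. SYNJ2-IT1 likewise had 0 RNA-Seq counts and 6, 6, 16 and 10 footprints. ANP32A-IT1 had 10, 4, 2 and 2 RNA-Seq counts and 25, 48, 39 and 36 footprints. None of the 3 was called in RPF. Scaled for depth, both XRN1-null libraries of ASAP1-IT2 were above both WT libraries, and the groups of SYNJ2-IT1 and of ANP32A-IT1 overlapped. Among all 10105 genes 5 were at or under 3 counts in every RNA-Seq library and above 3 in at least 1 Ribo-Seq library, and 4 of them were intronic members (ASAP1-IT2, SYNJ2-IT1, BIN3-IT1 and WARS2-IT1). The remaining gene was CAND1.11, picked out after its values were seen. Of the hosts, SYNJ2 rose in RNA-Seq (log2 fold change 1.13), while ASAP1 (0.03) and ANP32A (-0.43) were not called. In ASAP1-IT2 and in SYNJ2-IT1 85.0% of the 29-nt windows occur at a single place in GRCh37, while 12.3% and 12.1% occur at 10 or more places. The part of repeated sequence in these footprints was not tested.

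Position and sequence limit how surely a count belongs to a member. Of the 61 members 51 were found in GENCODE release 44 on GRCh37, 40 by symbol and 11 by an older symbol. The exons of 27 members overlapped no exon of another gene on either strand and those of 24 did. Of the 22 members called in RNA-Seq, 9 were among the 27, with 3 rises and 6 falls. Among the 32 LINC members matched, a median of 81.8% of the 29-nt windows, the length of a footprint, occurred at a single place in the genome, from 0.7% for LINC01296 to 6250 of 6253 windows for LINC01578. LINC01002 (3.4%), LINC00863 (17.5%), LINC00152 (17.6%) and LINC01347 (18.3%) were also low. Of the 24 LINC members with 50% or more of such windows 5 rose and 10 fell in RNA-Seq, and of the 8 with fewer 3 rose and 2 fell, against 22.9% and 23.2% of all genes. The value for LINC00674 covers a short pseudogene model only, and LINC01000 was not matched. Windows and overlaps were taken over all annotated exons, which can differ from the deposited width. LINC01021 had 23638 nt of exons against a width of 1106 nt, and LINC00152 17782 against 952 nt. LINC00294 had 3306 against 3305 nt. Windows and overlaps thus need not describe the sequence that was counted. Their length was that of a footprint, and the RNA-Seq read length was not considered.

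Other noncoding RNAs known by name, outside the symbol rule, moved in both directions. Of 42 such RNAs 27 were in the table, and in RNA-Seq 11 rose, 8 fell and 8 were not called, against 22.9% that rose and 23.2% that fell among all genes, with a median log2 fold change of 0.06. Host genes of small nucleolar RNAs stood on both sides. SNHG1, SNHG15 and SNHG17 rose by 1.98, 1.91 and 1.92 on the log2 scale, and GAS5, whose spliced RNA is a known target of nonsense-mediated decay, rose by 1.31. SNHG19 fell by 1.48 and SNHG9 by 1.14. The nuclear MALAT1, with a mean of 32.1 CPM in the WT RNA-Seq libraries, had a log2 fold change of 0.12 and was not called. In Ribo-Seq 0 of the 27 were called, against 0.633% of all genes that rose and 1.14% that fell. In TE, where 1.78% of all genes fell, SNHG15 and SNHG17 fell by 1.30 and 1.40. A list of 27 well-studied LINC, antisense and microRNA host RNAs had only LINC00152 (CYTOR) in the table, with a log2 fold change of 0.65 in RNA-Seq (FDR = 0.00821 from edgeR) that missed the threshold.

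The RNA decay factors that act on noncoding RNAs were read from the same fit. Of 12 cytoplasmic 5′–3′ decay genes 7 rose in RNA-Seq and 0 fell, against 22.9% and 23.2% of all genes. Besides XRN1 they included the NMD factors UPF1 (1.23) and SMG6 (1.07), the decapping activators PATL1 (0.72) and DDX6 (0.36), and DCP1A (0.38). DDX6 was the only one called in Ribo-Seq (0.92). EDC4, the partner of the NBDY protein, was not called in RNA-Seq (0.12) or Ribo-Seq (-0.42). Of 20 listed symbols of nuclear 3′–5′ decay 19 were in the table. The other, MTREX, is the newer symbol of SKIV2L2, which is among the 19. Of these genes 4 rose and 5 fell in RNA-Seq, close to the same shares of all genes. XRN2, the nuclear 5′–3′ exoribonuclease, was not called, with a log2 fold change of 0.36.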

How the data were processed

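HEK293T cells, WT or XRN1-null, gave 2 biological replicates per assay (RNA-Seq, Ribo-Seq), and libraries were assigned to groups by the sample labels. The authors filtered ribosomal RNA reads with Bowtie2, mapped the rest on hg19 with TopHat2, kept the footprint lengths with the clearest periodicity, counted with QuasR and deposited raw counts per gene with a width, after a stated filter at an FPKM of 2; the annotation and the strand setting of the counting are not given in the sources used here. Deposited tables of the authors' own fold changes, p-values and TE were not used.

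The deposited counts were fitted with edgeR 4.0.16 (R 4.3.3), as quasi-likelihood fits with TMM factors within each assay. Each of the assays was fitted on its own against genotype, and TE as the interaction of assay and genotype over 8 libraries. Calls were made at an FDR under 0.005 over 10105 genes, with no filter on low counts. SE is the log2 fold change divided by the root of F. The labels do not say that same-numbered libraries were prepared together.

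Members and lists were chosen with earlier results of these data known. Named are the 8 members highest in WT RNA-Seq and in WT Ribo-Seq RPKM, the 8 largest called rises and falls per contrast that held in all pairs of libraries, the members called in RPF or TE, members of the lists, hosts of the intronic members named, and XRN1; intronic members with footprints or without counts, CHD2, LINC00339 and LINC01515 were named after their values were seen. The value of 1 gene in the list of cytoplasmic decay genes is not reported here. Positions came from GENCODE release 44 on GRCh37 (the coordinates of hg19), biotypes and older symbols from RefSeq, and windows of 29 nt were counted on both strands of the genome with Python 3.11.15. For 10 members not matched there, position and windows were not analysed here. Floors of 3 counts cover counting error only.

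Tested on simulated counts of the 10105 genes, the fits recovered 100% of genes changed by a log2 of 1 in RNA-Seq, 74% in Ribo-Seq and 61% in TE, and 100%, 99% and 96% at a log2 of 2, with 0 false calls. Changes were planted only in genes above a minimum total of counts in each assay. The spread between replicates was fixed per assay. These shares therefore do not give the power for members with few counts or a larger spread. Alternatives were RLE factors, library totals, DESeq2 1.42.0, a minimum of 10 counts, an FDR of 0.05, blocks by replicate number across genotypes and across assays, members without exon overlap, and leaving out each library.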

Additional observations from a re-analysis of the deposited data

How the results depend on the processing

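With RLE factors, library totals and DESeq2, the counts of called members stayed within 1.5 times of those reported in RNA-Seq, Ribo-Seq and TE. Among the 27 members without exon overlap, 3 rose and 6 fell in RNA-Seq, 0 rose in Ribo-Seq and 0 fell in TE; fewer members were counted. With a minimum of 10 counts in every library, 0 rose in Ribo-Seq, since LINC01002 was not tested. At an FDR of 0.05, 2 rose and 3 fell in Ribo-Seq and 2 fell in TE. With the replicate number as a block, 2 rose and 2 fell in Ribo-Seq and 1 rose in TE, where LINC01521 missed the threshold (FDR = 0.00525 from edgeR); in RNA-Seq 13 rose and 15 fell. Over all genes the block also gave more calls in Ribo-Seq, 616 rises and 665 falls against 64 and 115. The deviations of same-numbered libraries correlated at 0.204 in RNA-Seq and 0.0789 in Ribo-Seq over 9768 genes, and with 2 pairs this does not show that the numbers pair the samples. A block of the RNA-Seq and Ribo-Seq libraries that share genotype and number, which the labels do not tie to one culture and whose deviations correlated at 0.387 in WT and 0.0418 in XRN1-null cells, gave 2 rises and 1 fall in TE, the counts reported. Leaving out each library gave 8 to 12 rises and 6 to 14 falls in RNA-Seq, 1 to 2 rises and 0 to 3 falls in Ribo-Seq, and 0 to 1 rises and 0 to 1 falls in TE; the single library left in a group was assumed to vary like the other groups.

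No called change of a member changed direction under these settings. LINC00094 and LINC00863 missed the threshold in RNA-Seq with RLE factors (FDR = 0.00718 and 0.00522) and with library totals, as did LINC00339 with library totals and with DESeq2 (adjusted p = 0.00520); the cause was not tested. In simulated counts 74% of log2 changes of 1 were recovered in RPF and 61% in TE, among genes above a minimum total of counts. The 15 members with 0 footprints in all 4 Ribo-Seq libraries were under that minimum.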
